A study of Mus musculus with 12 samples.

Results

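The cell cycle and DNA replication genes of the developing mouse lung were followed through 53 genes chosen by symbol, out of the 16152 genes whose reads were counted. All 53 were in the count table, and all 53 passed the filter on low values as did 15994 genes in all, which were tested. RNA-seq had been performed on whole lungs of male and female C57BL/6 mice at embryonic days E15.5 and E18.5 and at postnatal days P5 and P8, with 3 replicates at each time-point and no treatment, which gave 12 libraries. The study followed gene expression and alternative splicing across birth, and a single litter gave all replicates of a time-point, so litter and time-point cannot be told apart and p-values measure only the spread between littermates. The libraries held between 41337443 and 53901957 counted reads, and no pair of replicates held the same counts within sampling noise. E15.5 replicate 2 and P8 replicates 1 and 2 stood apart by their thymocyte genes and E15.5 replicates 1 and 2 by heart muscle genes. The fit was repeated without each library in turn and without the 3 with thymocyte genes together. Values are CPM, counts scaled to the mapped reads, given for each library or as the mean ± SD of the 3 replicates. Fold changes are on the log2 scale, the later time-point over the earlier, from edgeR's quasi-likelihood test over all 15994 genes, with FDR values adjusted over all of them. The test reports no SE, so the SE of a fold change was approximated as its absolute value over the square root of the test's F value. A gene is called where it was past both cutoffs, a log2 fold change beyond 1 in either direction and an FDR under 0.05, and it is said to have fallen or risen where its FDR alone was under 0.05.

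A dividing cell first copies its DNA and then parts the copies. Before S phase, the loading factors *Cdc6* and *Cdt1* place the MCM2-7 ring on replication origins (licensing), and the ring becomes the active helicase once the GINS complex joins it. *Pcna*, the sliding clamp, holds the polymerases on DNA, while ribonucleotide reductase (*Rrm1*, *Rrm2*) and thymidylate synthase (*Tyms*) supply nucleotides. Cyclin E and *E2f1* act at the G1/S boundary, and *Mybl2* and *Foxm1* drive transcription of the later genes. Cyclin B with *Cdk1* starts mitosis, condensin compacts the chromosomes, the spindle checkpoint waits until every kinetochore is attached, and kinesins and *Prc1* build the midzone where the cell is cut. In quiescent cells many of these genes are held down by the DREAM complex, which acts through a promoter element named the CHR, and at the G1/S genes through E2F sites, and NF-Y binds CCAAT boxes in the same promoters. In the lung, proliferation is high while the airways branch.

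Promoters of 2 genes of the replication helicase and 2 genes of mitotic chromosomes are shown because they hold the elements by which these groups are usually told apart. The sequences are the 250 bases upstream of the RefSeq start on GRCm38.p6, written 5′ to 3′ along the gene, in lower case with the searched motifs in capitals.
Mcm6: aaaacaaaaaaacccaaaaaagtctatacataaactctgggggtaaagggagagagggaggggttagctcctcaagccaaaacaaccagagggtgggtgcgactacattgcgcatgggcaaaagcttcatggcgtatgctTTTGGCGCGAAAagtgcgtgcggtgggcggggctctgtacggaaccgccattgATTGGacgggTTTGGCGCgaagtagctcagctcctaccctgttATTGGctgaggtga
Mcm5: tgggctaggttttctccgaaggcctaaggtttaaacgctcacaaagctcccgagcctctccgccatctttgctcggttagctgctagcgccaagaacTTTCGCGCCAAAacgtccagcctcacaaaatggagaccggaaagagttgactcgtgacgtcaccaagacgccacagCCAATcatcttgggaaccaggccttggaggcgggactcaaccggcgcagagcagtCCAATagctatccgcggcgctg
Top2a: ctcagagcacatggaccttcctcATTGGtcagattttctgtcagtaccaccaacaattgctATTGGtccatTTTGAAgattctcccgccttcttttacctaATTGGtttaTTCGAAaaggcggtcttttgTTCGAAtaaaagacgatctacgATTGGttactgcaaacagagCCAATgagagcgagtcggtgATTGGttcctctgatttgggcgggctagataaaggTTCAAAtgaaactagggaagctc
Mki67: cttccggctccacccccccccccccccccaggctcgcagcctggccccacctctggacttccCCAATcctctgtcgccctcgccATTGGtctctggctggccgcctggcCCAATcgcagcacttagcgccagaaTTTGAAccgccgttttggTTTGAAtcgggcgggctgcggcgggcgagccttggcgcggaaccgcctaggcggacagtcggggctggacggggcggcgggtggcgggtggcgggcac
The window of *Mcm6* was chr1:128359706-128359955 on the minus strand and that of *Mcm5* was chr8:75109259-75109508 on the plus strand. The windows of *Top2a* and *Mki67*, both on the minus strand, were chr11:99024190-99024439 and chr7:135716380-135716629. Motifs were searched on both strands: the CHR as TTTGAA or TTCGAA, with TTCAAA as the reverse complement of the first, the CCAAT box as CCAAT or ATTGG, and the E2F site as TTTCCCGC, TTTCGCGC, TTTGCCGC or TTTGGCGC or one of their reverse complements. *Mcm6* held 3 E2F matches, which begin 110, 106 and 47 bases before the start, and 2 CCAAT boxes. *Mcm5* held 2 E2F matches, 153 and 149 bases before the start, and 2 CCAAT boxes. In both genes the pair of neighbouring E2F matches shares bases, so it reads as a single capital run. *Top2a* held 4 CHR matches and 6 CCAAT boxes, *Mki67* held 2 CHR matches and 3 CCAAT boxes, and neither held an E2F match.

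A promoter window was found for 42 of the 53 genes. Windows for *Ccna2*, *Ccne2*, *Cdc25c*, *Aurkb*, *Kif20a*, *Tpx2*, *Mcm4*, *Gins1*, *Gins2*, *Smc4* and *Foxm1* were not used here. A CHR match was in 14 of the 42 windows (33.3%), against 12.4% of the windows of all genes tested and 17.4% of all 27025 promoter windows of the same length. It was in 12 of the 28 windows of mitosis genes (42.9%) and in 2 of the 11 windows of replication genes (18.2%). A CCAAT box was in 30 of the 42 (71.4%), at similar shares in the replication genes (72.7%) and the mitosis genes (78.6%), against 35.9% of the genes tested and 34.5% of all windows. The E2F letters were in 6 of the 42 (14.3%), of which 4 were among the 11 replication genes (36.4%) and 2 among the 28 mitosis genes (7.14%), against 3.24% of the genes tested and 1.91% of all windows. Within the 100 bases nearest the start, a CHR match was in 7 of the 28 mitosis genes (25%) and 1 of the 11 replication genes (9.09%), against 3.61% of the genes tested. These matches are a description of letters in a window, and no test was run on them.

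The main change in these genes lay between E18.5 and P5. Of the 53 genes, 45 were called lower at P5 than at E18.5 and none higher, where 9.34% of all genes tested were called lower. By FDR alone 52 fell, against 35.7% of all genes tested, and for the same number each P5 library lay below each E18.5 library, against 38.8%. The median log2 fold change of the 53 genes was -1.33, a median level 2.51-fold lower, where the median of all genes tested was 0 to 2 decimals. Together the 53 genes took 0.813% ± 0.0281 (SD, n = 3) of the mapped reads at E15.5, and 0.721% ± 0.0291 when E18.5 was reached. After birth the share was 0.288% ± 0.0116 at P5 and 0.286% ± 0.0322 at P8. In CPM, their sum was 8163, 7839 and 8402 in the E15.5 libraries, 6977, 7119 and 7540 in the E18.5 libraries, 2769, 2996 and 2857 in the P5 libraries and 2762, 3221 and 2596 in the P8 libraries. For 52 of the 53 genes each of the 6 postnatal libraries lay below each of the 6 embryonic libraries, which held for 29.7% of all genes tested. From E15.5 to P8, 48 were called lower, against 11.5% of all genes tested, and none higher. In RNA from whole lungs, fewer dividing cells and less RNA of these genes per cell cannot be told apart.

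**Figure D1:**
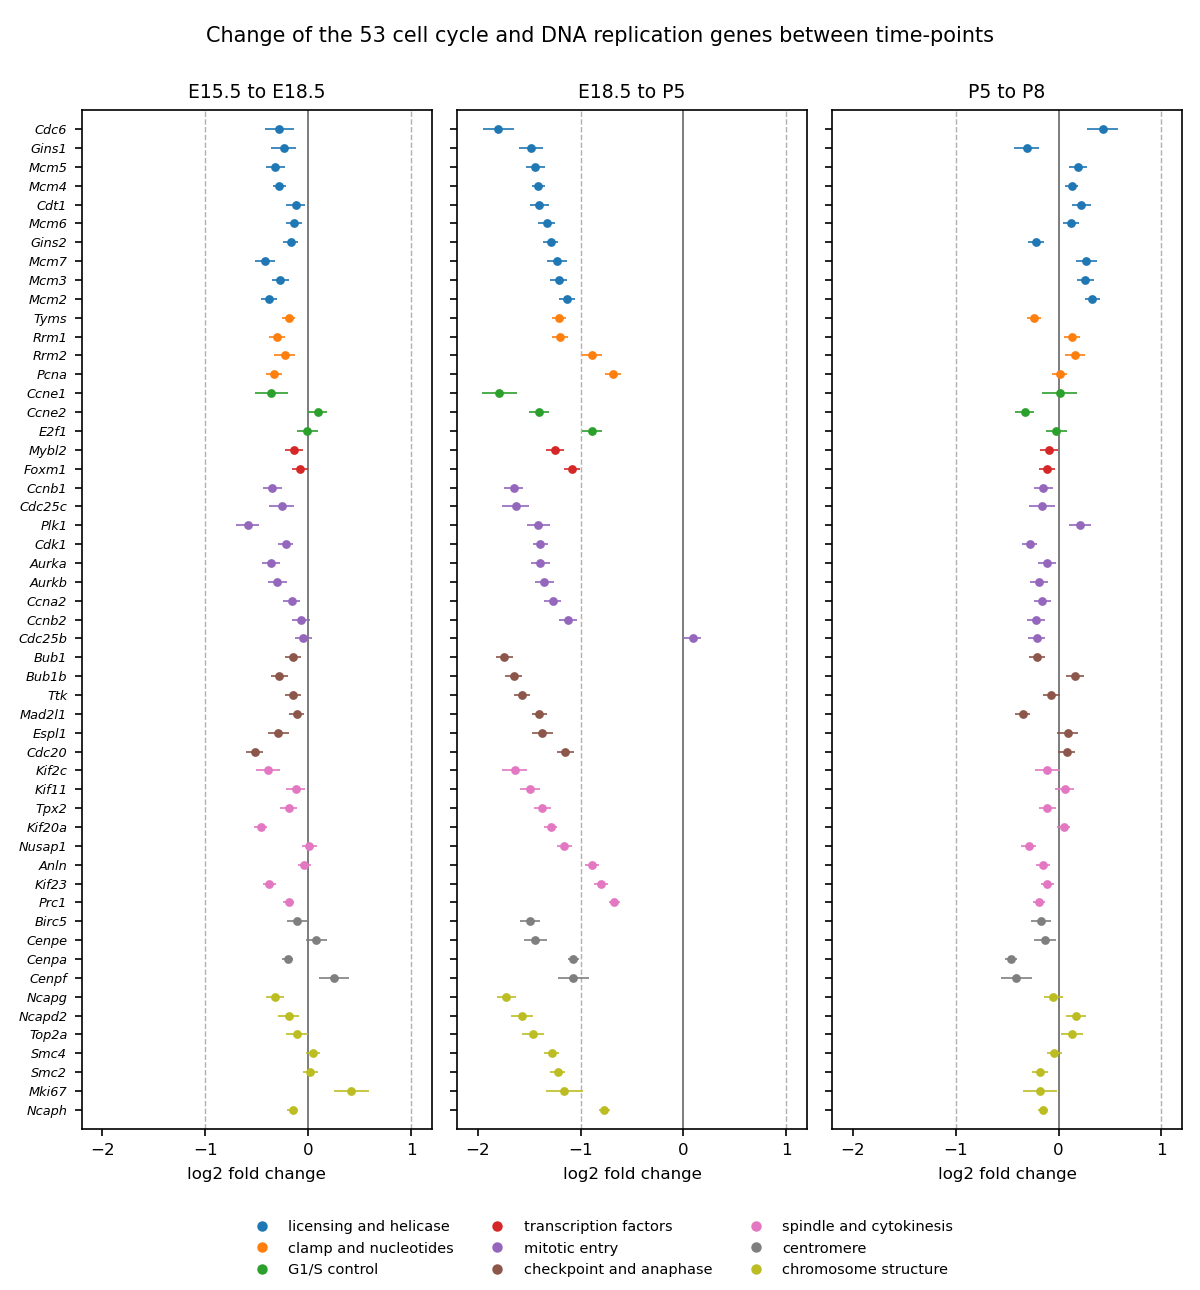
Log2 fold change (x axis) of each of the 53 genes (y axis, coloured by role) in the intervals E15.5 to E18.5, E18.5 to P5 and P5 to P8, with bars of 1 standard error on either side and dashed lines at the fold change cutoff. From E18.5 to P5 all points but Cdc25b lie left of 0, down to -1.80 for Cdc6, while in the other intervals every point lies inside the cutoff.

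Among the licensing and helicase genes, all 10 were called lower from E18.5 to P5 and their median log2 fold change was -1.36. *Mcm6* (ENSMUSG00000026355, chr1:128331590-128359664 on the minus strand of GRCm38), a subunit of the helicase ring, was at 282, 289 and 293 CPM in the E15.5 libraries, 250, 253 and 280 in those of E18.5, 91.3, 105 and 98.3 in those of P5 and 109, 119 and 94.6 in those of P8. *Mcm5* (ENSMUSG00000005410, chr8:75109569-75128439 on the plus strand), its partner in the ring, was at 279, 279 and 285 CPM in the E15.5 libraries, 202, 226 and 246 in those of E18.5, 77.7, 80.2 and 75.1 in those of P5 and 90, 101 and 77.1 in those of P8. The embryonic and postnatal libraries of both genes were far apart, with the lowest E18.5 library above the highest P8 library. Across birth the log2 fold change was -1.33 ± 0.08 (SE, edgeR FDR = 2.9e-08) for *Mcm6* and -1.44 ± 0.092 (SE, edgeR FDR = 4.3e-08) for *Mcm5*. The loading factor *Cdc6* had the largest fall of the 53 genes, -1.80 ± 0.15 (SE, edgeR FDR = 3.7e-07). It was at 52.9, 56.1 and 51.3 CPM in the E15.5 libraries, 38.2, 45.4 and 48.2 in those of E18.5, 12.4, 11.7 and 11.3 in those of P5 and 15.9, 20.3 and 12.1 in those of P8, so that its P5 libraries lay close together while its E18.5 and P8 libraries were spread. The other licensing genes, *Cdt1*, *Gins1*, *Gins2*, *Mcm2*, *Mcm3*, *Mcm4* and *Mcm7*, changed by between -1.48 and -1.13.

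Of the 4 genes of the clamp and of nucleotide supply, 2 were called lower and all 4 fell, and their median of -1.05 was the nearest to 0 of the 9 roles. *Pcna* was at 301, 310 and 294 CPM in the E15.5 libraries, 214, 242 and 264 in those of E18.5, 128, 151 and 143 in those of P5 and 143, 155 and 133 in those of P8, and its log2 fold change of -0.68 ± 0.078 (SE, edgeR FDR = 5.9e-06) was the second smallest of the 52 falls. Its P5 libraries stayed below all of its E18.5 libraries. *Rrm1*, the large subunit of ribonucleotide reductase, was at 268, 263 and 283 CPM in the E15.5 libraries, 206, 222 and 229 in those of E18.5, 88.7, 91.9 and 89.3 in those of P5 and 99.4, 112 and 87.3 in those of P8, with a log2 fold change of -1.20 ± 0.08 (SE, edgeR FDR = 5.7e-08). *Rrm2*, the small subunit, was at 186, 175 and 175 CPM in the E15.5 libraries, 136, 154 and 166 in those of E18.5, 72.4, 79.5 and 78.9 in those of P5 and 87.5, 101 and 72 in those of P8, and changed by -0.89 ± 0.1 (SE, edgeR FDR = 5.6e-06), short of the fold change cutoff. *Tyms* was called at -1.21 ± 0.065 (SE, edgeR FDR = 1.3e-08).

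At the G1/S boundary, 2 of 3 genes were called lower and all 3 fell. *E2f1*, a transcription factor of the G1/S genes, was at 61.7, 57.5 and 62.4 CPM in the E15.5 libraries, 64.6, 60.3 and 54 in those of E18.5, 30.7, 30.8 and 29.3 in those of P5 and 33, 31.5 and 25.9 in those of P8. Its log2 fold change of -0.89 ± 0.1 (SE, edgeR FDR = 6.8e-06) stayed inside the cutoff, with no overlap between its embryonic and postnatal libraries. *Ccne2*, a cyclin E, was at 61.4, 62.8 and 60.8 CPM in the E15.5 libraries, 55.8, 71.2 and 69.6 in those of E18.5, 20.9, 24.8 and 24.5 in those of P5 and 16.1, 20.5 and 20 in those of P8, a log2 fold change of -1.40 ± 0.097 (SE, edgeR FDR = 7.8e-08). *Ccne1*, the other cyclin E, had the second largest fall of the 53 genes, -1.79 ± 0.17 (SE, edgeR FDR = 1.3e-06), although its E18.5 libraries were spread at 31.7, 42.6 and 51.5 CPM against 10.7, 12.1 and 11.3 at P5. Both transcription factors of the later genes were called lower. *Foxm1* was at 121, 119 and 131 CPM in the E15.5 libraries, 105, 118 and 129 in those of E18.5, 48.7, 55.4 and 53.2 in those of P5 and 48.7, 53 and 46.1 in those of P8, a log2 fold change of -1.08 ± 0.077 (SE, edgeR FDR = 1e-07). *Mybl2* was at 61.1, 62.3 and 67 CPM in the E15.5 libraries, 54.4, 56.7 and 61.2 in those of E18.5, 20.4, 24.2 and 23.7 in those of P5 and 22.1, 23.6 and 19.2 in those of P8, a log2 fold change of -1.25 ± 0.087 (SE, edgeR FDR = 8.2e-08).

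Of the 9 genes of mitotic entry (cyclins, *Cdk1*, its activating phosphatases, and the *Plk1* and Aurora kinases), 8 were called lower and their median was -1.39. *Ccna2*, which acts in S phase and into mitosis, was at 226, 234 and 232 CPM in the E15.5 libraries, 197, 204 and 217 in those of E18.5, 78.6, 84.6 and 78.5 in those of P5 and 72, 83.6 and 63.2 in those of P8, and its log2 fold change was -1.27 ± 0.083 (SE, edgeR FDR = 5.1e-08). *Cdk1*, the kinase of mitosis, was at 203, 226 and 212 CPM in the E15.5 libraries, 184, 179 and 185 in those of E18.5, 61.6, 65.8 and 70.4 in those of P5 and 55.4, 60.8 and 49.1 in those of P8, with a log2 fold change of -1.39 ± 0.075 (SE, edgeR FDR = 1.4e-08). Both genes had embryonic levels more than 2-fold their postnatal levels in every library. *Ccnb1*, *Cdc25c*, *Plk1*, *Aurka*, *Aurkb* and *Ccnb2* changed by between -1.65 and -1.12. *Cdc25b*, a phosphatase that activates cyclin-Cdk complexes before mitosis, was the exception. It was at 60.5, 62.9 and 64.3 CPM in the E15.5 libraries, 60.2, 58 and 62.5 in those of E18.5, 67, 59.6 and 54.3 in those of P5 and 50, 55.6 and 53.4 in those of P8, so that its E15.5, E18.5 and P5 libraries overlapped, and across birth its log2 fold change was 0.09 ± 0.082 (SE, edgeR FDR = 0.34). It also missed the threshold from E15.5 to P8, at -0.16 ± 0.082 (SE, edgeR FDR = 0.086), although it came under the threshold in some alternatives, scaling by the counted reads alone among them.

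**Figure D2:**
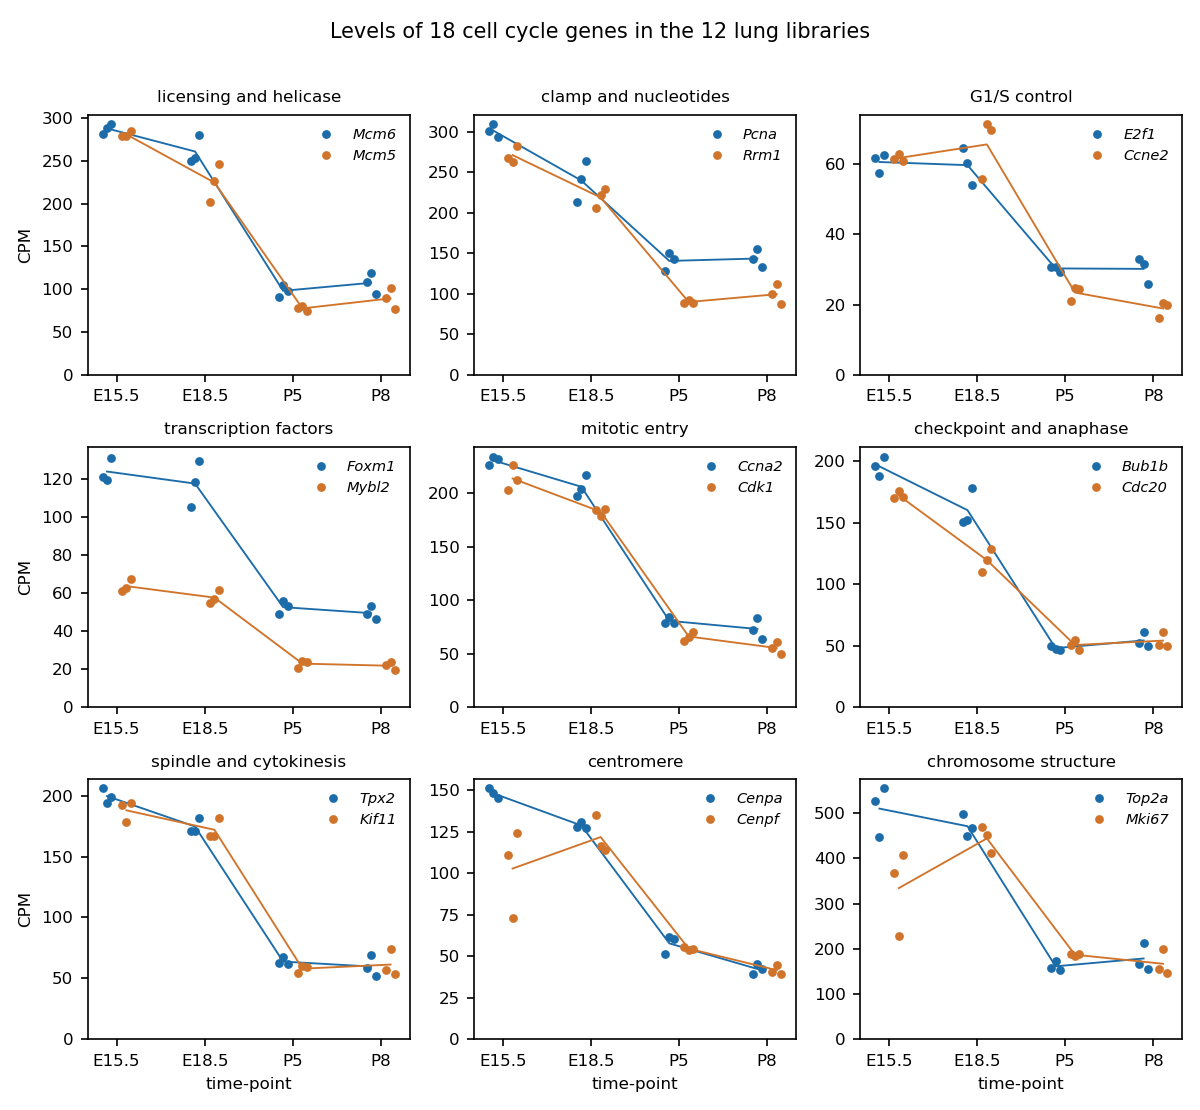
CPM (y axis, from 0) in the 12 libraries by time-point (x axis) for the 2 most abundant genes of each of 9 roles, with a point for each library and lines through the means of 3 replicates. For each gene plotted the P5 and P8 points lie below its own E15.5 and E18.5 points, and the E15.5 points of Mki67 and Cenpf reach down to 227 and 73.1 CPM.

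All 6 checkpoint and anaphase genes were called lower, with the lowest median of the 9 roles, -1.49. *Bub1*, a checkpoint kinase, had the third largest fall, -1.74 ± 0.082 (SE, edgeR FDR = 4.8e-09), from 95.4, 102 and 120 CPM in the E18.5 libraries to 27.7, 31.7 and 30 in those of P5. *Bub1b*, which holds back the anaphase-promoting complex, was at 196, 188 and 204 CPM in the E15.5 libraries, 151, 152 and 178 in those of E18.5, 50, 47.2 and 46.6 in those of P5 and 52.2, 60.9 and 49.5 in those of P8, and its log2 fold change was -1.65 ± 0.086 (SE, edgeR FDR = 9.4e-09). *Cdc20*, which activates that complex, was at 170, 176 and 171 CPM in the E15.5 libraries, 110, 120 and 129 in those of E18.5, 50.6, 54.3 and 46.6 in those of P5 and 50.8, 61.4 and 50 in those of P8, a log2 fold change of -1.15 ± 0.083 (SE, edgeR FDR = 1.1e-07). *Cdc20* had already fallen between the embryonic time-points, in every alternative run, with no overlap between its libraries. *Bub1b* did so too (edgeR FDR = 0.031, no overlap), but missed the threshold in 6 alternatives, among them the replicate block and leaving out E15.5 replicate 1 or 3 or E18.5 replicate 1 or 2. The other 4 checkpoint genes did not pass the threshold there. *Ttk*, *Mad2l1* and *Espl1*, the protease that opens cohesin, changed by -1.57, -1.40 and -1.37.

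Among the 8 spindle and cytokinesis genes, 5 were called lower and all 8 fell. *Tpx2*, which brings Aurora A to the spindle, was at 206, 194 and 199 CPM in the E15.5 libraries, 171, 171 and 182 in those of E18.5, 62.2, 67.6 and 61.3 in those of P5 and 58.1, 68.8 and 51.9 in those of P8, a log2 fold change of -1.37 ± 0.083 (SE, edgeR FDR = 3e-08). *Kif11*, the kinesin that pushes the spindle poles apart, was at 192, 178 and 194 CPM in the E15.5 libraries, 167, 167 and 182 in those of E18.5, 54.7, 59.7 and 59.2 in those of P5 and 56.6, 74 and 53.1 in those of P8, a log2 fold change of -1.49 ± 0.096 (SE, edgeR FDR = 4.6e-08). *Kif2c*, *Kif20a* and *Nusap1* changed by -1.64, -1.29 and -1.16. The 3 genes short of the cutoff were *Anln*, *Kif23* and *Prc1*. *Anln*, a scaffold of the cleavage furrow, changed by -0.89 ± 0.065 (SE, edgeR FDR = 1.2e-07), *Kif23*, a kinesin of the central spindle, by -0.80 ± 0.065 (SE, edgeR FDR = 3.1e-07) and *Prc1* by -0.67 ± 0.056 (SE, edgeR FDR = 4e-07). *Prc1*, which bundles midzone microtubules, was at 109, 108 and 103 CPM in the E15.5 libraries, 90.1, 92.7 and 97.3 in those of E18.5, 51.5, 60 and 54.6 in those of P5 and 45.2, 52 and 49.8 in those of P8, the smallest fall among the genes that fell. From E15.5 to P8 these 3 genes were called lower, at -1.07, -1.29 and -1.05.

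All 4 centromere genes were called lower from E18.5 to P5. *Cenpa*, the histone variant that marks the centromere, was at 151, 148 and 145 CPM in the E15.5 libraries, 128, 131 and 127 in those of E18.5, 51.4, 61.2 and 60.3 in those of P5 and 39, 45.2 and 42.5 in those of P8, a log2 fold change of -1.07 ± 0.056 (SE, edgeR FDR = 1.1e-08). *Cenpf*, a kinetochore protein, was at 111, 73.1 and 124 CPM in the E15.5 libraries, 135, 116 and 114 in those of E18.5, 55.5, 53.9 and 54 in those of P5 and 40.2, 44.9 and 39.4 in those of P8, a log2 fold change of -1.07 ± 0.15 (SE, edgeR FDR = 4.1e-05). *Cenpe* and *Birc5* changed by -1.44 and -1.49. Of the 7 genes of chromosome structure, 6 were called lower. *Top2a*, the topoisomerase that untangles sister chromatids and the gene with the highest mean CPM of the 53, was at 527, 448 and 555 CPM in the E15.5 libraries, 497, 449 and 467 in those of E18.5, 158, 173 and 152 in those of P5 and 167, 213 and 155 in those of P8, a log2 fold change of -1.46 ± 0.11 (SE, edgeR FDR = 1.9e-07). *Mki67*, the coat protein of mitotic chromosomes and a common marker of dividing cells, was at 367, 227 and 408 CPM in the E15.5 libraries, 469, 451 and 412 in those of E18.5, 188, 184 and 188 in those of P5 and 154, 199 and 147 in those of P8, a log2 fold change of -1.16 ± 0.18 (SE, edgeR FDR = 7e-05). *Ncapg*, *Ncapd2*, *Smc4* and *Smc2* of condensin changed by between -1.72 and -1.22, but *Ncaph*, the subunit that ties condensin together, by -0.77 ± 0.053 (SE, edgeR FDR = 7.1e-08). *Ncaph* was at 104, 99.9 and 105 CPM in the E15.5 libraries, 92.9, 89 and 96.7 in those of E18.5, 48.3, 53.4 and 52.4 in those of P5 and 44.9, 49.4 and 45.8 in those of P8, with no overlap across birth.

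In the embryonic interval, E15.5 to E18.5, no gene of the 53 was called by edgeR or by DESeq2, where 1.46% of all genes tested were called lower. By edgeR 26 were lower and 1 higher at an unadjusted p under 0.05, and none of them was past the fold change cutoff. By FDR alone 20 fell and none rose, against 9.87% of all genes tested that fell and 11.6% that rose. Of these 20, 8 were among the 14 replication genes, 12 among the 33 mitosis genes and none among the other 6. The count was 7 without E18.5 replicate 1, 9 without E18.5 replicate 2, 19 without E18.5 replicate 3, and 12, 14 and 13 without E15.5 replicates 1, 2 and 3. It was between 17 and 22 with a P5 or P8 library left out. *Cdc20*, *Plk1*, *Aurka*, *Kif20a*, *Kif23*, *Mcm2* and *Mcm4* fell in every alternative run. The largest of these changes was that of *Plk1*, the kinase that matures the spindle poles, at -0.59 ± 0.11 (SE, edgeR FDR = 0.0037). *Plk1* went from 93.1, 93.7 and 96.2 CPM in the E15.5 libraries to 55.1, 60 and 72.6 in those of E18.5, with no overlap. *Cdc20* changed by -0.52 ± 0.081 (SE, edgeR FDR = 0.0019) and *Kif20a*, a kinesin of cytokinesis, by -0.46 ± 0.063 (SE, edgeR FDR = 0.0011). Among the helicase genes, *Mcm2* changed by -0.38 ± 0.077 (SE, edgeR FDR = 0.0061) and *Mcm4* by -0.28 ± 0.062 (SE, edgeR FDR = 0.0094).

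*Mki67* and *Cenpf* had higher means in the E18.5 libraries than in those of E15.5, with log2 fold changes of 0.42 ± 0.17 (SE, edgeR FDR = 0.1) and 0.25 ± 0.15 (SE, edgeR FDR = 0.25). Neither passed the threshold. E15.5 replicate 2 was low for both, at 227 CPM of *Mki67* against 367 and 408 in the other replicates, and at 73.1 CPM of *Cenpf* against 111 and 124. Without this library the log2 fold changes were 0.20 (edgeR FDR = 0.25) and 0.06 (edgeR FDR = 0.72). Without E15.5 replicate 3 that of *Mki67* was 0.60 and passed (edgeR FDR = 0.032). Over all alternatives the FDR ranged from 0.032 to 0.25 for *Mki67* and from 0.06 to 0.72 for *Cenpf*. Heart muscle genes (*Myh6*, *Myl7*, *Nppa*, *Tnnt2* and *Actc1*) summed to 933, 1170 and 52.1 CPM in the E15.5 libraries and to between 51.3 and 83.4 in the E18.5 libraries, with *Nppa* at 0 in 1 or more of the latter. Their part in the differences between these time-points was not tested.

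From P5 to P8 none of the 53 genes was called by edgeR or by DESeq2, where 0.0875% of all genes tested were called lower and 2.88% higher. At an unadjusted p under 0.05, 16 were lower and 5 higher by edgeR. By FDR alone 7 fell and 2 rose, against 8.21% of all genes tested that fell and 9.75% that rose, so the share that fell was of the order of that over all genes and the share that rose was smaller. *Cenpa* had the largest fall, -0.46 ± 0.056 (SE, edgeR FDR = 0.00085). *Mad2l1*, a checkpoint protein, went from 46.8, 52 and 55.7 CPM in the P5 libraries to 38.6, 45.8 and 38.6 in those of P8, a log2 fold change of -0.35 ± 0.074 (SE, edgeR FDR = 0.01). *Cdk1*, *Nusap1*, *Prc1*, *Tyms* and *Ccne2* fell by between 0.19 and 0.33 on the log2 scale. Of the 7, *Cenpa* and *Mad2l1* fell in every alternative run. The 2 that rose were helicase genes. *Mcm2* went from 67.4, 72.3 and 67.3 CPM in the P5 libraries to 87.1, 97.2 and 78.1 in those of P8, a log2 fold change of 0.33 ± 0.077 (SE, edgeR FDR = 0.016). *Mcm3* went from 73, 81.3 and 67.4 CPM in the P5 libraries to 91.1, 96 and 81.2 in those of P8, a log2 fold change of 0.26 ± 0.081 (SE, edgeR FDR = 0.044). For *Mcm2* all P8 libraries lay above all P5 libraries, and for *Mcm3* the lowest P8 library, at 81.2 CPM, lay just below the highest P5 library, at 81.3.

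The P8 libraries were not alike in these genes, here ordered by the scaled log2 CPM of the fit rather than by the CPM values. P8 replicate 2 held the highest of the 3 values for 48 of the 53 genes, where it did so for 32.8% of all genes tested. P8 replicate 3 held the lowest for 44, including all 14 replication genes, against 39.9% of all genes. In CPM the order can differ. Of the replication genes, *Mcm4* (70.3, 80.7 and 72.3 CPM at P8) and *Gins2* (16.1, 19.8 and 16.6) were lowest in replicate 1. Single libraries also led at the other time-points. E18.5 replicate 3 was highest for 39 of the 53 genes, against 34.5% of all genes. E15.5 replicate 3 was highest for 34 (35.3% of all genes) and P5 replicate 2 for 33 (32.0%). The 12 thymocyte markers (*Cd3e*, *Cd3d*, *Cd3g*, *Rag1*, *Rag2*, *Dntt*, *Ptcra*, *Cd8b1*, *Cd4*, *Lck*, *Themis* and *Cd1d1*) summed to 236, 435 and 45.1 CPM in P8 replicates 1, 2 and 3, between 36.1 and 45.5 at P5 and between 18.2 and 19.8 at E18.5. At E15.5 they summed to 21.6, 64.6 and 23.6 CPM, highest in replicate 2. The RNA came from whole lungs, and the defining gene *Rag1* was at up to 156 CPM in a P8 library and at 1 CPM or less at P5, while *Rag1* and *Ptcra* were at 0 in 1 or more E18.5 libraries. Without P8 replicate 1 or without P8 replicate 2 no gene of the 53 rose from P5 to P8, and without P8 replicate 3 the number that rose was 9: *Mcm2*, *Mcm3*, *Mcm5*, *Mcm6*, *Mcm7*, *Cdc6*, *Cdt1*, *Rrm1* and *Rrm2*, by between 0.19 and 0.58. With the 3 libraries highest in thymocyte markers left out together (E15.5 replicate 2 and P8 replicates 1 and 2), the log2 fold change of *Mcm2* was 0.15 (edgeR FDR = 0.36) and that of *Mcm3* was 0.11 (edgeR FDR = 0.61), where their FDR over all alternatives ranged from 0.00096 to 0.36 and from 0.014 to 0.61. In that fit P8 rests on a single library, which is taken to vary like the others. The number of falls from P5 to P8 also depended on single libraries: 3 without P5 replicate 2 and 4 without P8 replicate 1. No gene rose without P5 replicate 3, and *Mcm2* alone rose without E15.5 replicate 1, E18.5 replicate 1, E18.5 replicate 2 or P5 replicate 1. The 3 libraries highest in thymocyte markers hold no E18.5 or P5 library, so leaving them out was no test of the fall across birth.

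Replication genes and mitosis genes were compared as the 14 genes of licensing, helicase, clamp and nucleotide supply against the 33 genes of mitotic entry, checkpoint, spindle, centromere and chromosome structure, leaving out *Ccna2*, *Ccne1*, *Ccne2*, *E2f1*, *Foxm1* and *Mybl2*, the cyclins and transcription factors that belong to neither list. From E18.5 to P5, 12 of the 14 replication genes and 28 of the 33 mitosis genes were called lower, shares of like size, against the 9.34% of all genes tested given above. Their median log2 fold changes were -1.26 and -1.37, a difference of 0.11 that is small beside the range within each group, from -1.80 to -0.68 and from -1.74 to 0.09. From E15.5 to E18.5 the medians were -0.27 and -0.19, so here the replication genes stood lower by 0.09. From P5 to P8 the medians were 0.14 and -0.15, on opposite sides of 0, a difference of 0.29. From E15.5 to P8 they were -1.38 and -1.60. These intervals share libraries, so their values are not independent, and since the genes were chosen with results known, no p is given for a difference between the groups.

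**Figure D3:**
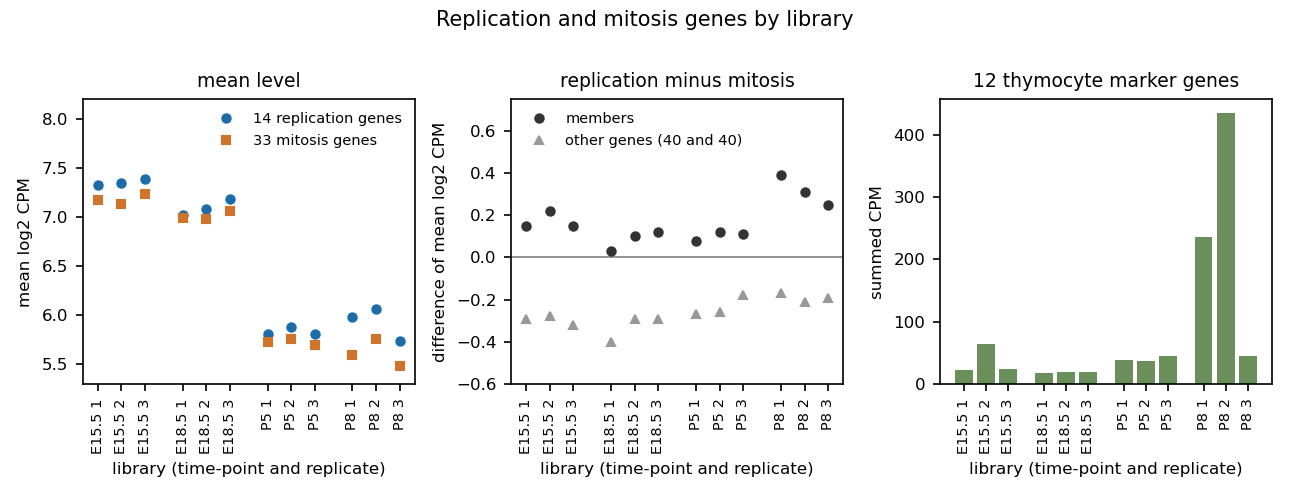
Mean scaled log2 CPM of the fit for the replication and mitosis genes (left), replication minus mitosis for the 53 genes and for 40 and 40 other genes of the same processes (middle), and the summed CPM of 12 thymocyte markers (right), each against the 12 libraries (x axis). The difference is between 0.03 and 0.22 in the libraries up to P5 and between 0.25 and 0.39 at P8, where the thymocyte markers reach 435 CPM in replicate 2.

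Library by library, the mean log2 CPM of the replication genes minus that of the mitosis genes was 0.15, 0.22 and 0.15 in the E15.5 libraries, 0.03, 0.10 and 0.12 in those of E18.5, 0.08, 0.12 and 0.11 in those of P5 and 0.39, 0.31 and 0.25 in those of P8. The 3 P8 libraries lay above the other 9, and the E18.5 and P5 libraries overlapped. The thymocyte markers summed to 236, 435 and 45.1 CPM in P8 replicates 1, 2 and 3. The smallest difference of the 3 was that of replicate 3, and the largest was that of replicate 1, not of replicate 2. Sums of some other markers also stood apart at P8, replicate 3 included. The 5 mesenchymal markers summed to between 4040 and 4320 CPM against between 2700 and 2980 at P5, and the 7 leukocyte genes to between 243 and 269 against between 138 and 172. The higher mesenchymal sum came from the collagens *Col1a1* and *Col3a1*, at 0.96 and 0.6 on the log2 scale from P5 to P8. In that interval *Pdgfra*, *Tcf21* and *Tbx5* were at -0.48, -0.45 and -0.25. The 5 hepatocyte genes summed to 10.7, 106 and 34.8 CPM in P8 replicates 1, 2 and 3 against between 2.09 and 2.84 at P5. The heart muscle genes summed to 111, 313 and 93.5 CPM against between 91.1 and 228, so replicates 1 and 3 lay within the P5 range. The part of any of these cells in the difference was not tested. Without the 3 libraries highest in thymocyte markers, the difference of the medians from P5 to P8 was 0.15 in place of 0.29, and the median of the replication genes was -0.05. In the lists of 40 other replication genes and 40 other mitosis genes, the same difference per library averaged -0.30 ± 0.021 (SD, n = 3) in the E15.5 libraries, -0.33 ± 0.064 in those of E18.5, -0.24 ± 0.049 in those of P5 and -0.19 ± 0.02 in those of P8. There the P5 and P8 libraries overlapped, so the separation of P8 seen in the 53 genes was not seen in them. The median log2 fold changes of these other replication and mitosis genes from P5 to P8 were -0.05 and -0.09, both below 0.

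Levels can be compared between genes only per length of transcript, here as CPM per kilobase of all annotated exons of a gene. The 6 subunits of the MCM2-7 ring enter it in equal numbers. At E15.5 *Mcm5* was highest at 70.4 ± 0.93 CPM per kilobase (SD, n = 3), followed by *Mcm4* at 64.0 ± 4, *Mcm6* at 61.7 ± 1.2, *Mcm3* at 58.4 ± 1.98, *Mcm7* at 53.8 ± 4.04 and *Mcm2* at 30.1 ± 0.624. The intervals of 1 SD about these means overlapped for *Mcm4* with *Mcm6* and with *Mcm3*, and for *Mcm3* with *Mcm7*, whereas those of *Mcm5* and *Mcm2* overlapped no other. At P5 the order was *Mcm6* at 21 ± 1.44, *Mcm3* at 19.7 ± 1.86, *Mcm5* at 19.4 ± 0.648, *Mcm4* at 18.7 ± 1.02, *Mcm7* at 16.1 ± 1.2 and *Mcm2* at 9.92 ± 0.413, where the intervals of 1 SD of *Mcm6*, *Mcm3*, *Mcm5* and *Mcm4* all overlapped and those of *Mcm7* and *Mcm2* overlapped no other. The exon length of a gene includes parts found only in minor transcripts, which lowers its value. It was 6956 bases for *Mcm2* and between 3589 and 4666 for the other subunits, and the SD does not cover this. Over all 53 genes the highest at E15.5 were *Pcna* at 126 ± 3.37 and *Cdc20* at 92.2 ± 1.86 CPM per kilobase, and the lowest was *Cdc25c* at 5.55 ± 0.405.

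The gene *Kif20a* also held an intron whose retention differed between embryonic and postnatal libraries. The study picked this intron on these samples, so its values are a description, with no test. The percent spliced in (PSI), the share of transcripts that keep the intron, was 3.90, 5.69 and 4.35% in the E15.5 libraries and 5.02, 2.78 and 5.02% in those of E18.5. It was 12.7, 20.1 and 16.5% at P5 and 23.1, 20.3 and 21.5% at P8, so each postnatal library lay above each embryonic library. The corrected reads of the spliced form were between 308 and 377 in the embryonic libraries and between 76 and 146 in the postnatal libraries. The reads of the retained form were between 9.3 and 20.6 in the former and between 20.8 and 40.1 in the latter. Thus the spliced reads were fewer after birth and the retained reads were not. The level of *Kif20a* was 80.3, 83.4 and 90.1 CPM at E18.5 and 32.7, 33.9 and 31.0 CPM at P5. An exon of *Cdc23*, on the opposite strand, overlaps *Kif20a*, and the sources used here do not say whether strand entered the counting. Its part in the PSI was not tested.

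**Figure D4:**
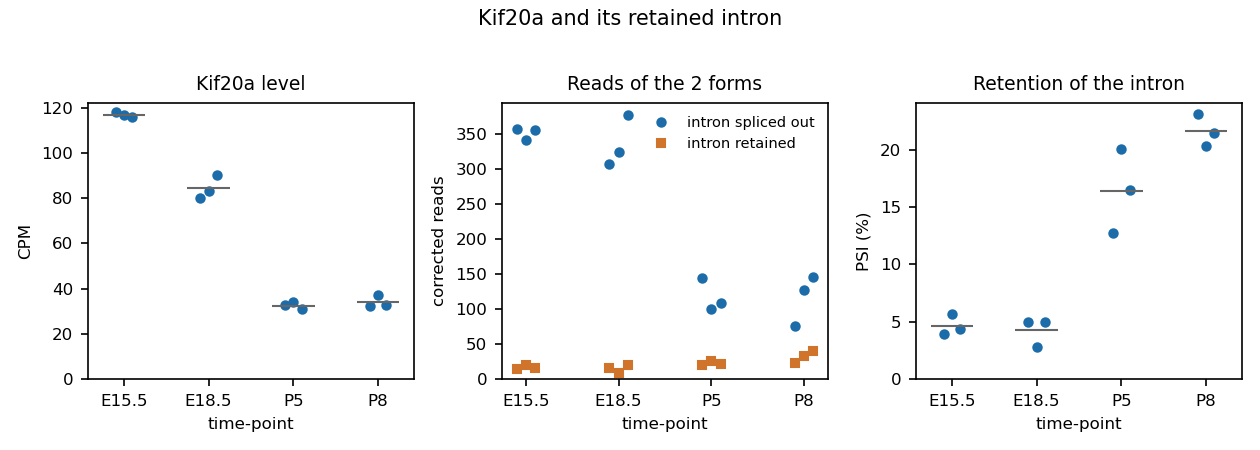
CPM of Kif20a (left), corrected reads of the spliced and the retained form of its intron (middle) and PSI in percent (right) against time-point, with a point for each library and horizontal lines at the mean of 3 replicates in the outer panels. PSI lies between 2.78 and 5.69% before birth and between 12.7 and 23.1% after it, while the postnatal reads of the spliced form are between 76 and 146.

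Other genes of the same processes moved likewise. Of 40 further replication genes (origin recognition, polymerases, clamp loader, single-strand binding and chromatin assembly among them), 26 were called lower from E18.5 to P5 and none higher, against 9.34% of all genes tested that were called lower. All 40 fell by FDR alone, against 35.7%, with a median log2 fold change of -1.10. The largest fall was that of *Mcm10*, which helps start the helicase, from 51.2 ± 6.21 CPM (SD, n = 3) down to 11.6 ± 1.11, a log2 fold change of -2.06 (SE 0.11, edgeR FDR = 1.5e-08). The smallest were those of the origin subunits *Orc4* and *Orc3*, at -0.22 and -0.27. Of 40 further mitosis genes, 29 were called lower and none higher, against the same 9.34%, with a median of -1.25. *Cdca2* had the largest fall, -1.84 (SE 0.094, edgeR FDR = 8.8e-09). *Pttg1*, the securin that restrains separase, rose from 16.6 ± 1.88 CPM up to 21.4 ± 0.878, a log2 fold change of 0.45 (SE 0.11, edgeR FDR = 0.0034), against the other 39, which fell.

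The cyclins and kinases of G1, which answer growth signals before S phase, were mixed. Of 6, 1 was called lower from E18.5 to P5, against 9.34% of all genes tested, and 3 fell by FDR alone, against 35.7%. The gene called was *Cdk4*, from 615 ± 44.0 CPM (SD, n = 3) down to 213 ± 4.27, a log2 fold change of -1.44 (SE 0.063, edgeR FDR = 2.9e-09). *Cdk2*, the partner of cyclin E, fell by 0.93 on the log2 scale (edgeR FDR = 3.8e-07) and *Ccnd3* by 0.23 (edgeR FDR = 0.034). *Ccnd1*, *Ccnd2* and *Cdk6* had log2 fold changes of -0.08, 0.02 and 0.10, with edgeR FDR values of 0.43, 0.78 and 0.47. The median of the 6 was -0.16.

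The labelled tissue was checked by its markers. The lung epithelial markers *Nkx2-1*, *Epcam*, *Cdh1*, *Sftpc* and *Sftpb* summed to between 1040 and 2660 CPM in the embryonic libraries and to between 12100 and 16000 in the postnatal ones. The higher sum after birth came from the surfactant genes *Sftpc* and *Sftpb*, at 3.2 and 4.32 on the log2 scale across birth, while *Epcam*, *Nkx2-1* and *Cdh1* were at -1.62, -0.54 and -0.21. Sums of 5 endothelial markers were between 1030 and 1150 CPM at E18.5 and between 2160 and 2280 at P5, and those of 5 mesenchymal markers were between 2740 and 2900 and between 2700 and 2980. Of other cell types that the organ can hold, 10 genes of red cell precursors summed to between 49.9 and 54.2 CPM at E18.5 and between 213 and 461 at P5, and 7 leukocyte genes to between 34.3 and 38.4 and between 138 and 172. At P5 most of the red cell sum was *Alas2*, at between 154 and 334 CPM, and *Slc4a1*, at between 38.1 and 87.5. *Klf1* and *Gata1* were at 1.56 CPM or less in the libraries of both time-points. The part of these cell types in the fall of the cell cycle genes was not tested. Reads can be shared for some of the 53 genes: exons of 15 overlap another annotated gene, 12 of them on the opposite strand, and 4 have named pseudogenes. The most abundant of these, Pcna-ps2, averaged 19.8 CPM in the E15.5 libraries, 17.4 in those of E18.5 and 8.89 in those of P5, beside 302, 240 and 141 CPM for *Pcna*, and how reads were split between them is uncertain.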

How the data were processed

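RNA-seq libraries of whole lungs at 4 time-points were analysed from the deposited tables. The authors mapped the reads to mm10 with TopHat2 2.1.1 and Bowtie2 2.3.4, counted them per Gencode gene with HTSeq-count 0.10.0, and deposited raw counts of the 16152 genes they kept. They also deposited CPM, each count over the mapped reads of its library, and the PSI (percent) of splicing events from VAST-TOOLS. The TruSeq libraries were sequenced as paired-end reads. Here edgeR 4.0.16 (R 4.3.3) was run with TMM in one fit of the 12 libraries over genes that reached 1 CPM in 3 or more libraries. Counts of genes whose libraries lay apart, highest or lowest used the log2 CPM of that fit, scaled by TMM. DESeq2 1.42.0, other scalings, filters and left-out libraries were alternatives. Symbols and exon lengths came from a Gencode annotation of GRCm38, and 16136 genes had a symbol. Promoters came from RefSeq. The genes and lists were chosen with earlier results of these data known. Genes given in every library were the 2 with the highest mean CPM in each role. Those given with fold changes were the 3 largest and 3 smallest changes, the genes not called from E18.5 to P5, and those against their role, while other values shown were chosen after they were seen. Same-numbered replicates had correlated deviations of between -0.343 and 0.301 and were not paired.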

Additional observations from a re-analysis of the deposited data

How the results depend on the processing

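The counts of called genes and the directions of the medians held under most alternatives: 293 alternative values moved by less than the replicate spread or 1.5 times, 10 moved further and 1 turned its direction. By FDR under 0.05 alone, in place of both cutoffs, 20 genes passed between the embryonic time-points and 9 between the postnatal ones, where none was called. With library size only, the medians from E18.5 to P5 were -1.33 for the replication genes and -1.44 for the mitosis genes, and the median of all genes tested shifted by -0.071. With broader groups (17 and 36 genes), the difference of medians from E18.5 to P5 was 0.07. Without the 3 libraries highest in thymocyte markers, the median of the replication genes from P5 to P8 turned to -0.05, the difference was 0.15, and the medians from E15.5 to P8 were -1.60 and -1.77. The cause was not tested. With single libraries left out, the median of the mitosis genes ranged from -1.40 to -1.32 between E18.5 and P5, and from -1.73 to -1.55 between E15.5 and P8, and the number called was 44 or 45 and between 48 and 51. The replicate numbers of the labels are only numbers. With a replicate block, 45 genes were called between E18.5 and P5, 48 between E15.5 and P8, and none in the other intervals. Of the alternative values of named genes that passed by FDR in the main fit, 1106 kept the threshold, 46 lost it and none reversed. These counts, and the 293 above, include fits that left out a library of a time-point outside the interval. Such a fit can move the shared spread and the scaling but hardly the fold change, so it adds little. All 46 were in the intervals of small change. From E15.5 to E18.5, 29 values lost it and 115 kept it. From P5 to P8, 17 lost it and 55 kept it. None was lost from E18.5 to P5 or from E15.5 to P8, where 468 values each kept it. Counting error is small at these depths, and the 3 replicates set the precision.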
